A study of Pistacia chinensis with 8 samples.

Results

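Monoecious female buds were set against dioecious female buds in Pistacia chinensis, the Chinese pistache, a tree whose plants usually bear flowers of a single sex. Monoecious female buds came from strain T2, which the labels also give for bisexual buds, and dioecious female buds came from strain C1. Each bud type was sampled at 2 stages of sex differentiation, B and C, and each stage was compared on its own, so 4 of the 8 small RNA libraries of the series entered the comparison. The other 4 libraries, from bisexual buds (strain T2) and dioecious male buds (strain X1), served for the error estimate and as values beside it. All libraries were made from inflorescence buds, with 1 library per bud type and stage. The labels do not say whether a library came from 1 tree or from a pool. Strain and sexual system go together here, so their parts in a difference cannot be told apart. The table counts miRNAs and no floral organ genes, so the pistillate identity of the buds was not checked against marker genes.

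Plant miRNAs guide Argonaute proteins to messenger RNAs of near-perfect complementarity, which are then cut or less translated. Many conserved families repress transcription factors that pattern flowers, such as HD-ZIP III genes (miR165 and miR166), GAMYB genes (miR159), TCP genes (miR319), growth-regulating factors (miR396), AP2-like genes (miR172) and auxin response factors (miR160 and miR167). Others act on nutrient supply, on small RNA silencing itself or on disease resistance genes. Female flowers of both sexual systems form a pistil, and the comparison asks whether the miRNAs of these buds differ between a monoecious and a dioecious plant.

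Counts summed over the miRNA rows came to 821235 in monoecious female and 1159015 in female buds at stage B. At stage C they came to 512244 in monoecious female and 473553 in female buds. Stage B bisexual buds had the smallest sum, 160129. Reads held by several rows count more than once in these sums, which are not the sequencing depth. Levels are given as CPM, reads per 1000000 after TMM scaling, which sets libraries to a common level by trimmed mean ratios. A ratio is the monoecious female level over the female level of the same stage, with an exact conditional binomial 95% interval. The interval holds the counting error alone. Reads were not marked with molecular identifiers and so are not independent molecules, and there is no replicate to give the spread between trees. Stage B ratios depend on the scaling more than stage C ratios do. TMM factors from the miRNA rows put the effective depth of the monoecious female over the female library at 0.734 at stage B and 1.06 at stage C. TMM factors from the 4 compared libraries alone gave 1.06 and 1.14, and those from reads summed per family gave 1.35 and 1.17. With the last factors every stage B ratio is 0.545 times and every stage C ratio 0.903 times the value printed here. The order of miRNAs along the ratio, and ratios of 1 miRNA to another within a library, do not change with scaling.

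The 1 row that passed the test was a predicted miRNA, which the authors' numbering calls novel_33. It was not detected in monoecious female buds at either stage and was read in female buds at both. The monoecious female libraries of stages B and C held 0 and 0 reads of novel_33, against 209 and 598 reads in the female libraries. With a floor of 3 reads per library, it was at least 51.1-fold lower at stage B and at least 210.5-fold lower at stage C. It was the 1 row of 248 tested (0.403%) that fell in edgeR's quasi-likelihood test with Benjamini-Hochberg adjustment (adjusted p = 0.0082), and 0 rows rose. Its fitted log2 change of -11.56 (SE 1.05) depends on the prior count and is no measure of size. Bisexual buds, of the same strain as monoecious female buds, held 0 and 2 reads, while male buds held 167 and 574. The 4 libraries of T2 thus lay at 0 to 3.07 CPM and the 4 dioecious libraries at 251 to 1063 CPM, with no overlap.

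The edgeR test used the additive model of stage and bud type over all 8 libraries, in which 3 residual degrees of freedom come from how the stage change differs among bud types. The bisexual library of stage B stood apart, with a rank correlation of row levels with monoecious female buds of 0.812, against 0.949 at stage C. Without both bisexual libraries 4 rows passed, and with the 4 compared libraries alone 7 passed. novel_33 lost its call without the stage B library of monoecious female buds (adjusted p = 0.0664), without their stage C library (adjusted p = 0.171) and without the female library of stage C (adjusted p = 0.0534). In all, 11 rows had an unadjusted p under 0.05, and DESeq2 called 3 rows.

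Of 132 rows with at least 50 reads in 1 of the 2 libraries at each stage, 4 (3.03%) were at least 2-fold higher in monoecious female buds at both stages and 1 (0.758%), novel_33, was at least 2-fold lower. All 4 higher rows were predicted miRNAs, and the sources used here do not give their targets. novel_30 stood at 272 CPM in monoecious female and 35.2 CPM in female buds at stage B. The stage C levels were 86.5 CPM in monoecious female and 6.77 CPM in female buds. The stage B and stage C ratios were 7.74 (5.16 to 12.02) and 12.8 (4.72 to 48.6), the last from 54 against 4 reads. Bisexual buds were also high, at 448 and 52.2 CPM, against 28.5 and 18.5 CPM in male buds at stages B and C. Its fitted log2 change was 3.24 (SE 0.76) and did not pass over all 8 libraries (edgeR adjusted p = 0.398), but it passed without both bisexual libraries (adjusted p = 0.0276) and in DESeq2 (adjusted p = 0.0164).

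novel_13 was the most abundant of the 4, at 2521 CPM in monoecious female and 766 CPM in female buds at stage B. Its stage C level was 2835 CPM in monoecious female and 1232 CPM in female buds. Its ratios were 3.29 (2.99 to 3.62) and 2.30 (2.11 to 2.51). Its order was different in the other bud types, as bisexual buds had 141 and 1109 CPM, below male buds with 1333 and 2398 CPM. novel_25 had ratios of 3.24 (1.91 to 5.69) and 2.08 (1.77 to 2.46), from 50 and 473 reads in monoecious female against 21 and 215 reads in female buds. Bisexual buds held 0 and 324 reads of novel_25 at stages B and C, and male buds 41 and 226. novel_102 had ratios of 2.73 (1.94 to 3.88) and 2.19 (1.73 to 2.79), from 104 and 236 against 52 and 102 reads. For novel_102 the male level lay between those of monoecious female and female buds, at 149 and 352 CPM at stages B and C. Bisexual buds had 172 and 217 CPM of novel_102, also between those of monoecious female and female buds. None of these 3 passed the edgeR test (adjusted p = 0.928 each). The row just outside the 2-fold rule was novel_40, at 4.12 and 1.99. With the factors from family sums 1 row, in place of 4, was at least 2-fold higher at both stages, and with those from the 4 compared libraries alone 2 were.

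The other rows with the smallest p were novel_41, novel_56 and ppe-miR399a. novel_41 was near 0 in both bud types at stage B, with 4 reads in monoecious female and 1 in female buds. Stage C libraries held 248 reads in monoecious female buds against 4 in female buds, a ratio of 58.7 (22.6 to 217). Bisexual and male buds had 145 and 107 reads there, so the female library was the low one. novel_56 had the opposite direction. The monoecious female libraries of stages B and C held 10 and 0 reads, against 136 and 6 in female buds, a stage B ratio of 0.100 (0.0470 to 0.190). Bisexual buds held 0 and 1 reads of novel_56 and male buds 80 and 3. ppe-miR399a was low in monoecious female buds, with 17 and 7 reads against 100 and 31 in female buds. Its ratios were 0.232 (0.130 to 0.390) and 0.214 (0.0795 to 0.495). These rows did not pass over all 8 libraries, with edgeR adjusted p of 0.398 for novel_41 and 0.699 for novel_56 and ppe-miR399a. Without both bisexual libraries novel_41 and novel_56 passed (adjusted p = 0.0269 each).

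**Figure D1:**
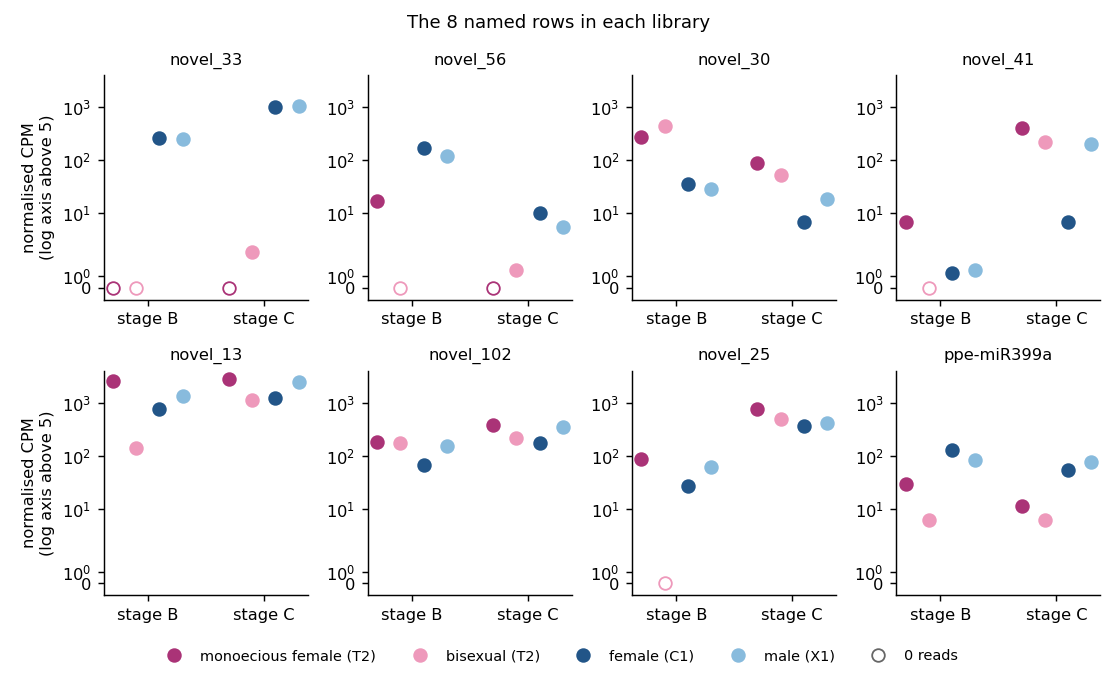
Normalised CPM (vertical axis, logarithmic above 5 CPM and linear below) of the 8 named rows in each of the 8 libraries, grouped by stage, with open circles for 0 reads. novel_33 is at 0 to 3.07 CPM in the T2 libraries and at 251 to 1063 CPM in the dioecious ones, while novel_30 is higher in both T2 libraries at each stage.

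At stage B the make-up of the abundant families differed. miR166 took 32.2% of miRNA reads in monoecious female and 48.1% in female buds, while at stage C it took 38.6% and 37.6%. miR319 had the opposite order at stage B, with 18.1% in monoecious female and 10.7% in female buds, and stood at 18.3% and 20.5% at stage C. miR396 took 4.35% in monoecious female and 1.86% in female buds at stage B. miR858, which represses MYB transcription factors, took 3.89% and 1.02% in the same order. At stage C the shares of miR396 and of miR858 each differed by less than 1 percentage point between the bud types. The miR159 share was 37.8% in monoecious female and 35.3% in female buds at stage B. These shares need no scaling between libraries, but reads held by several near-identical rows are counted more than once in them.

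**Figure D2:**
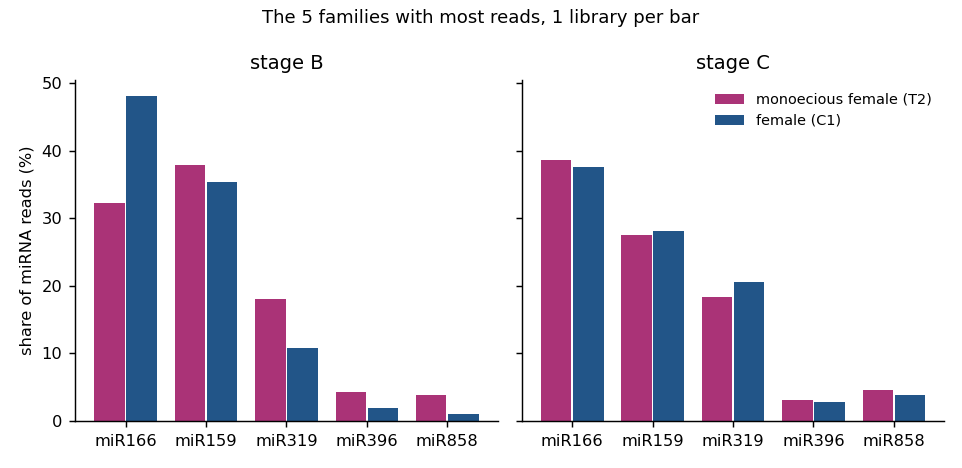
Share of miRNA reads in percent (bars, 1 library each) for the 5 families with most reads, in monoecious female and female buds at each stage. At stage B miR166 is at 32.2% in monoecious female against 48.1% in female buds, and at stage C the bars of the 2 bud types lie close together.

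Set against miR166 within each library, miR858, miR396 and miR319 showed the same contrast between stages. These are the same reads in another form. The lower share of miR166 in monoecious female buds at stage B enlarges the stage B differences. miR408 did not share the contrast, as monoecious female buds had 0.344 times the female value at stage B and 0.469 times at stage C. For 100 reads of miR166, monoecious female buds had 12.1 reads of miR858 and female buds 2.12 at stage B, a 5.69-fold difference. At stage C the 2 bud types had 12.03 and 10.3 reads of miR858 in that order. For miR396 it was 13.5 reads in monoecious female and 3.87 in female buds at stage B, and 8.004 and 7.51 at stage C. For miR319 it was 56.0 and 22.3 reads at stage B, and 47.3 and 54.5 at stage C. Against 100 reads of miR159, miR858 had 10.3 reads in monoecious female and 2.89 in female buds at stage B, a 3.56-fold difference.

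Summed per family, 25 named families had at least 50 reads in 1 of the 2 libraries at stage B. Of these, 10 (40%) were at least 2-fold higher in monoecious female buds and 1 (4%) at least 2-fold lower. The lower one was miR3711, with 27 reads in monoecious female and 109 in female buds, a ratio of 0.338 (0.213 to 0.518), named after its values were seen. The split of 10 and 1 depends on scaling, and was 7 and 3 with RLE factors, 4 and 6 with factors from the 4 compared libraries alone and 2 and 6 with those from family sums. At stage C 0 of 26 families were at least 2-fold higher and 1 (3.85%) at least 2-fold lower. With near-identical rows counted once, the stage C ratio was 2.1 for miR395 and 0.521 for miR408, so both counts depend on that choice. In the edgeR test on family sums and predicted miRNAs, 1 of 96 features (1.04%), novel_33, passed, and 0 families did, at an adjusted p of at least 0.811 and with 5 features at an unadjusted p under 0.05. DESeq2 called 4 features. The family values that follow are therefore levels of single libraries with their counting error. Of the 21 families of the 9 functional lists read deeply enough at stage B, 9 were above 1 and 6 below 1 under all 5 sets of scaling factors tried, and 6 changed side.

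**Figure D3:**
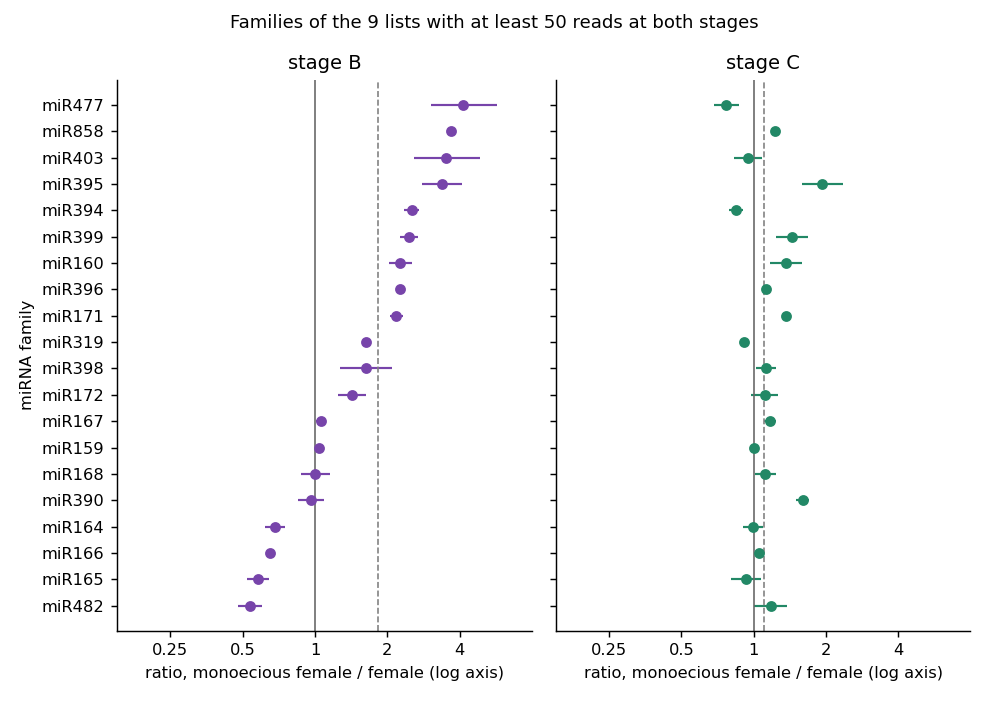
Ratio of monoecious female to female buds (horizontal axis, logarithmic, base 2) per miRNA family at stages B and C, with exact 95% intervals for counting error. The intervals are too narrow where a sum counts the same reads more than once. The solid line marks equal levels, and the dashed line marks where they would lie with factors from family sums. Among the families drawn, miR477 and miR858 lie highest and miR482 lowest at stage B, and the ratios lie closer together at stage C.

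Among MYB regulators, miR858 was the 1 family of its list that was tested. It stood at 54756 CPM in monoecious female and 14867 CPM in female buds at stage B, a ratio of 3.68 (3.61 to 3.76). Its stage C level was 38148 CPM in monoecious female and 31034 CPM in female buds, a ratio of 1.23 (1.21 to 1.25). Bisexual and male buds had 13306 and 16532 CPM at stage B, near female buds, so the monoecious female library stood alone there. miR477, which targets GRAS genes in other trees, had 286 CPM in monoecious female and 69.2 CPM in female buds at stage B, a ratio of 4.14 (3.03 to 5.72). At stage C its order turned, with 766 CPM in monoecious female and 995 CPM in female buds (ratio 0.770, 0.681 to 0.870). Bisexual and male buds had 294 and 353 CPM of miR477 at stage B, so there the female library was the low one. miR858 and miR477 were the families of the lists that stayed at least 2-fold higher at stage B with factors from family sums, at 2.01 and 2.25. miR473, the other family of the GRAS-targeting list, had at most 10 reads in any library.

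None of the 9 tested families of floral organ and meristem regulators passed (0 of 9). At stage B 3 of 8 were at least 2-fold higher and 0 lower, with a median ratio of 1.33, and at stage C 0 of 9 were past 2-fold, with a median of 1. Over all named families 10 of 25 were at least 2-fold higher at stage B, and the medians were 1.43 and 1.12. With factors from family sums 0 of the 8 were past 2-fold higher at stage B, as miR394 had 1.38, miR396 1.23 and miR171 1.19. On the low side miR164 had 0.372, miR165 0.317 and miR166 0.353 with those factors, each at least 2-fold lower. In the fit on family sums, which carries its own TMM factors, the median log2 change over both stages was -0.22 for the list and -0.07 for all named families. These medians differ from those of the ratios in the families and stages they cover as well as in the factors. miR394, which restrains an F-box gene to keep stem cells in the shoot apex of Arabidopsis, had 3854 CPM in monoecious female and 1527 CPM in female buds at stage B (ratio 2.52, 2.35 to 2.71). At stage C it had 2787 CPM in monoecious female and 3291 CPM in female buds (ratio 0.847, 0.793 to 0.904). miR396 had stage B and stage C ratios of 2.26 (2.22 to 2.30) and 1.12 (1.10 to 1.15). miR171, which targets GRAS regulators of meristems, had 2.18 (2.04 to 2.33) and 1.37 (1.31 to 1.43). For miR171 monoecious female buds stood at 3945 CPM, near male buds at 3472 CPM, and female buds at 1807 CPM at stage B.

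The leaf and vascular polarity families lay at the low end of their list at stage B. At stage C this no longer held for miR166, while miR165 stayed below 1 under all 5 sets of factors. miR166 had stage B and stage C ratios of 0.647 (0.644 to 0.650) and 1.05 (1.05 to 1.06), and its side at stage C changed with the scaling. miR165, of the same targets, had 0.581 (0.523 to 0.646) and 0.927 (0.802 to 1.07). miR164, which sets organ boundaries through NAC genes, had 0.682 (0.618 to 0.752) and 0.994 (0.901 to 1.10). miR319 was at 1.63 (1.61 to 1.64) and 0.914 (0.906 to 0.923), and miR159 at 1.03 (1.03 to 1.04) and 1.003 (0.995 to 1.01). With factors from family sums the stage B ratios of miR319 and miR159 were 0.887 and 0.564. miR169, which targets NF-YA genes, had 13 and 3 reads at stage B, and a stage C ratio of 1.73 (1.23 to 2.47).

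Of the nutrient and copper families 0 of 4 tested passed, and 2 of 3 were at least 2-fold higher at stage B, beside 10 of 25 over all named families. With factors from family sums it was 0 of 3, as miR395 had 1.84, miR399 1.34 and miR398 0.885. miR395, which targets genes of sulphate assimilation, had 627 CPM in monoecious female and 186 CPM in female buds at stage B. At stage C the levels were 508 CPM in monoecious female and 264 CPM in female buds. Its ratios were 3.37 (2.78 to 4.11) and 1.92 (1.58 to 2.35), above 1 under all 5 sets of factors. Bisexual buds lay above male buds too, with stage B levels of 202 against 76.6 CPM and stage C levels of 485 against 279.6 CPM. miR399, whose target PHO2 restrains phosphate uptake, had ratios of 2.45 (2.25 to 2.67) and 1.45 (1.24 to 1.69).

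miR408, which targets copper proteins such as plantacyanin, was the 1 family at least 2-fold lower at stage C. It had 436 reads in monoecious female and 837 reads in female buds there, a ratio of 0.493 (0.438 to 0.555). With near-identical rows counted once this ratio was 0.521, short of 2-fold. At stage B, with 8 and 49 reads, the ratio was 0.223 (0.0910 to 0.474). Bisexual buds had 685 CPM at stage C and male buds 454 CPM, so the female library was the highest of that stage. miR398, which targets copper/zinc superoxide dismutases, had ratios of 1.62 (1.27 to 2.09) and 1.13 (1.02 to 1.24).

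In the auxin list, 0 of 4 families passed and 1 of 3 was at least 2-fold higher at stage B, with a median ratio of 1.06, beside 10 of 25 and 1.43 over all named families. At stage C the median was 1.27, beside 1.12. With factors from family sums the 1 family past 2-fold, miR160, had 1.23 at stage B. miR160 had 1537 CPM in monoecious female and 679 CPM in female buds at stage B, a ratio of 2.26 (2.03 to 2.52), and 1.37 (1.17 to 1.59) at stage C. The stage C side was not shared by all rows, as 2 of 3 rows of miR160 lay above 1 and the most abundant was at 0.885. miR390 sets off the making of trans-acting siRNAs that silence auxin response factors. It had 4551 CPM in monoecious female and 2843 CPM in female buds at stage C, a ratio of 1.60 (1.51 to 1.70), against 0.962 (0.852 to 1.09) at stage B. The stage B value was 0.815 with RLE factors and 0.524 with factors from family sums. miR393, which targets the TIR1/AFB auxin receptors, had 20 against 7 reads at stage B and a ratio of 0.726 (0.565 to 0.932) at stage C. miR167 had 1.06 (1.01 to 1.11) and 1.17 (1.11 to 1.24).

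The remaining lists held few families, and 0 of their families passed. Of the silencing families, miR403, which targets AGO2, had 252 CPM in monoecious female and 71.7 CPM in female buds at stage B (ratio 3.51, 2.57 to 4.86), and 0.949 (0.830 to 1.09) at stage C. miR168, which targets AGO1, had 1.003 (0.872 to 1.15) and 1.12 (1.01 to 1.24). Among families that target NBS-LRR genes and trigger phasiRNAs, miR482 was low at stage B, with 718 CPM in monoecious female and 1339 CPM in female buds, a ratio of 0.536 (0.478 to 0.601). At stage C its ratio was 1.18 (1.01 to 1.38). miR472, of the same list, had 0.681 (0.413 to 1.10) at stage B and 13 against 18 reads at stage C. In the phase change list, miR172 had 1.43 (1.25 to 1.63) and 1.11 (0.974 to 1.27). miR156, which targets SPL genes, had 31 and 33 reads in monoecious female against 42 and 41 in female buds. miR535 had 10 and 5 against 18 and 7 reads. miR845, known from Arabidopsis pollen, had 18 and 14 against 10 and 5 reads, ratios of 2.45 (1.07 to 5.95) and 2.65 (0.903 to 9.41).

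Rows of several families lay on the same side with TMM factors from the miRNA rows. With near-identical rows counted once, 9 of 9 rows of miR396 had a stage B ratio above 1, from 1.36 to 3.22, and so had 9 of 9 rows of miR319, from 1.35 to 2.39, and 3 of 3 rows of miR160, from 2.27 to 2.41. The median row had 1.8 for miR396 and 1.63 for miR319. With factors from family sums both medians lie below 1, so most rows of these 2 families change side, while the 3 rows of miR160 stay above 1. Rows of a family can hold the same reads, so these counts are not independent. The abundant rows of miR166 lay close together, as gma-miR166u at 0.643 and ath-miR166a-3p at 0.642. osa-miR166d-5p carries the name of the passenger strand, and it is named here with its values known. It was on the other side at 2.83 (2.45 to 3.29), with 980.2 CPM in monoecious female and 346 CPM in female buds.

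miR399 was split. ath-miR399b, its most abundant row, had 2008 CPM in monoecious female and 673 CPM in female buds at stage B, and 4 of 5 rows had a stage B ratio of at least 2. ppe-miR399a, described above, was the other row, at 0.232. The miR171 rows were split as well. osa-miR171b had 2.87 (2.49 to 3.30) at stage B, while ptc-miR171c, which stands for 3 near-identical rows, had 0.689 (0.470 to 0.997). At stage C osa-miR171b had 1.43 (1.30 to 1.58) and ptc-miR171c 0.849 (0.629 to 1.15). In miR395, ath-miR395a had 157 and 29 reads in monoecious female against 55 and 3 in female buds, and osa-miR395c had 17 and 103 against 11 and 58. These rows of miR166, miR171, miR395 and miR399, other than ppe-miR399a, were chosen after their values were seen.

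**Figure D4:**
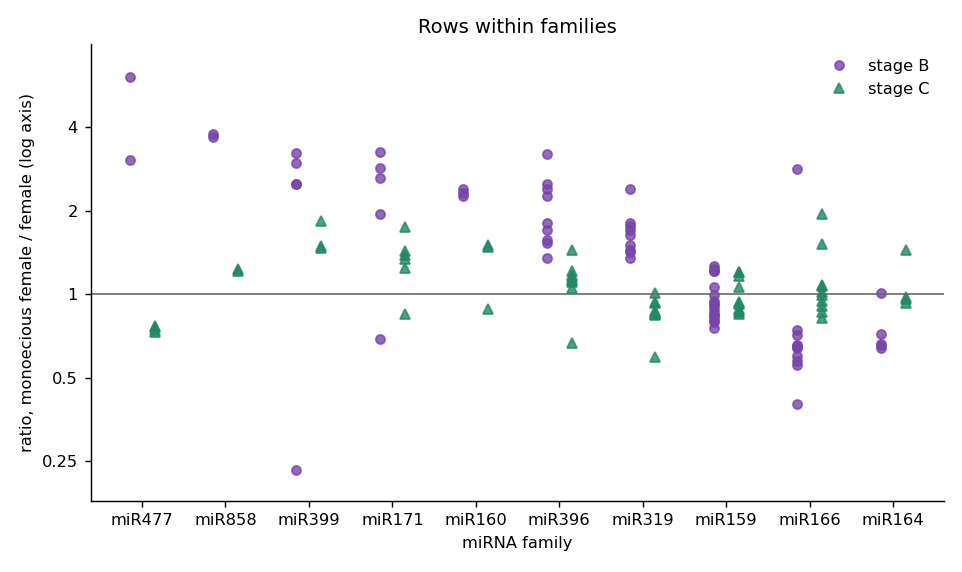
Ratio of monoecious female to female buds (vertical axis, logarithmic, base 2) for rows of 10 families with at least 50 reads at the stage shown, near-identical rows counted once. Circles are stage B and triangles stage C. ppe-miR399a, at 0.232, lies apart from the other miR399 rows, and osa-miR166d-5p, at 2.83, from the other miR166 rows.

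The bud types differed more widely at stage B than at stage C. Over 102 rows with near-identical rows counted once, read in all monoecious female, female and male libraries, the log2 ratio of monoecious female to female buds had a stage B SD of 0.893 and a stage C SD of 0.546. This spread does not change with scaling. It passed 2-fold in 32 of these rows at stage B and in 5 at stage C. For monoecious female over male buds the SD was 0.807 at stage B and 0.737 at stage C, and for male over female buds 0.687 and 0.85. These ratios share libraries, so they are given side by side only. Over the same 102 rows the stage B and stage C log2 ratios of monoecious female to female buds had a Pearson r of 0.418 and a Spearman rho of 0.339. They had the same sign in 68 rows. Rows of a family share reads, and the ratios of a stage share 2 libraries, so these values describe the rows and carry no test.

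Of the rows with at least 50 reads at stage B, near-identical rows counted once, 35 of 122 (28.7%) were at least 2-fold higher in monoecious female buds and 7 (5.74%) at least 2-fold lower. This split was 31 and 15 with RLE factors, 17 and 27 with factors from the 4 compared libraries alone, and 8 and 39 with those from family sums. The 35 higher rows were 25 rows from 12 named families and 10 predicted miRNAs, of 30 predicted miRNAs read this deeply (33.3%). Predicted miRNAs also made up 4 of the 7 lower rows (13.3% of the 30). Monoecious female buds were the highest of the 4 stage B libraries in 24 of the 35 rows and in 43 of all 122. The 35 rows were picked for a high level in that same library, so the first count is a description only. ptc-miR6478, chosen after its values were seen, was 1 of the 35 rows, with 494 CPM in monoecious female and 172 CPM in female buds at stage B, and 1164 and 1366 CPM at stage C.

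At stage C 9 of 119 rows (7.56%) were at least 2-fold higher and 4 (3.36%) at least 2-fold lower, near-identical rows counted once. The split was 4 and 4 with factors from family sums. Predicted miRNAs made up 8 of the 9 higher and 3 of the 4 lower rows, which is 24.2% and 9.09% of the 33 predicted miRNAs read this deeply. The named miRNAs among them were ath-miR390a-3p, with 60 against 26 reads (ratio 2.19, 1.36 to 3.61), and the miR408 row ppt-miR408b (0.476, 0.368 to 0.612). Of the predicted ones, novel_37 had 56.1 CPM in monoecious female and 269 CPM in female buds. Its other libraries of stage C had 32.3 CPM in bisexual and 27.8 CPM in male buds, so the female library stood apart. At stage B novel_37 had the opposite order, with 30 reads in monoecious female and 18 in female buds, a ratio of 2.27 (1.23 to 4.33), below the minimum of 50 reads. novel_60 had 38.5 CPM in monoecious female and 96.4 CPM in female buds at stage C. These 4 rows were chosen after their values were seen. No row with at least 50 reads at each stage was past 2-fold in opposite directions at the 2 stages.

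**Figure D5:**
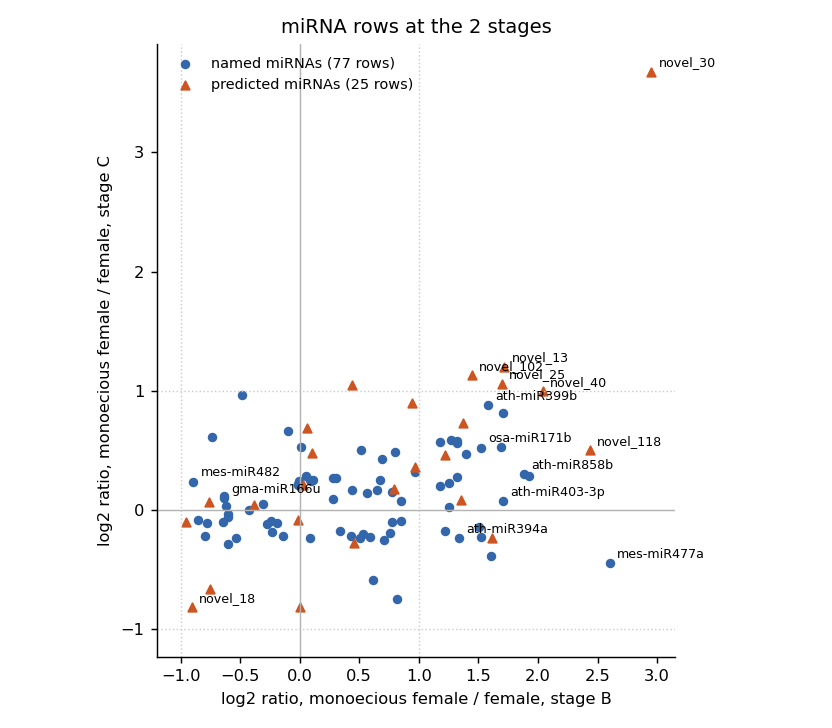
Log2 ratio of monoecious female to female buds at stage B (horizontal) and stage C (vertical) for 102 rows, near-identical rows counted once, with dotted lines at 2-fold. Points spread more along the stage B axis (SD 0.893) than along the stage C axis (SD 0.546), and novel_30 lies far out on both.

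The other T2 bud type and the other dioecious bud type were then set beside the comparison. Of the 248 rows tested, 27 (10.9%) were higher in both T2 libraries than in both dioecious libraries at each stage and 11 (4.44%) were lower. With factors from family sums the counts were 7 and 33, and 7 and 9 rows held under each of 4 sets of factors over all libraries. The 7 higher rows were novel_30, novel_100, novel_118, mdm-miR396a, csi-miR3954, osa-miR395o and pab-miR395. The lower ones were novel_33, novel_56, ppe-miR399a, ptc-miR399e, ptc-miR472a, zma-miR164h-5p and 3 near-identical miR171 rows, among them ptc-miR171c. The rows of this group that no rule named were chosen after their values were seen. novel_118 had 469.6 and 1055 CPM in monoecious female and bisexual buds at stage B, against 86.8 and 79.6 CPM in female and male buds. At stage C it had 509.6 and 484 CPM against 360.4 and 218 CPM in the same order. novel_100 had 28 and 8 reads in monoecious female and bisexual buds at stage B, against 2 and 2 in female and male buds. csi-miR3954 rested on fewer reads at stage B, with 2 and 4 in monoecious female and bisexual buds against 1 and 1 in female and male buds. At stage C it had 16 and 13 against 10 and 8 reads in the same order. ptc-miR472a rested on few reads as well. Its whole family had 27 and 1 reads in monoecious female and bisexual buds at stage B, against 54 and 39 in female and male buds. At stage C the family had 13 and 16 against 18 and 15 reads in the same order. The order of these rows under several scalings does not limit the counting error of so few reads. mdm-miR396a had 550.1 and 760.3 CPM in the T2 libraries and 171 and 191 CPM in the dioecious libraries of stage B.

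A few rare predicted miRNAs were read in 1 of the 2 sexual systems. novel_97 had 0 and 0 reads in monoecious female and 7 and 8 in female buds, with 0 and 0 in bisexual and 5 and 3 in male buds. novel_68 had 6 and 10 reads in monoecious female and 0 and 0 in female buds, with 0 and 2 in bisexual and 0 and 0 in male buds. Both were chosen after their values were seen and lay below the count minimum of the test. At this depth the 0 counts allow up to 3 reads per library.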

How the data were processed

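The authors deposited raw read counts for 471 miRNA rows in 8 libraries, 385 with miRBase-style names from 67 families and 86 predicted, and TPM values, which per the file headers and values equal the deposited counts per 1000000 reads of the column. Only counts were used. The submitters' processing notes name CASAVA 1.8 and Bowtie. The sources used here do not give the genome build, the miRBase release or how reads that match several miRNAs were counted. Rows carry names and no sequences.

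Rows of 1 family were joined as near-identical where their counts lay within 5% or 2 reads throughout (195 rows in 63 groups). Families were defined by the number in the name. The test was the quasi-likelihood F-test of edgeR 4.0.16 (R 4.3.3, TMM factors), in a model of stage and bud type, on rows that reached 10 reads in 2 or more libraries. Standard errors are the absolute log2 change over the square root of F. The calling threshold was an adjusted p of 0.05. Tested on simulated data for monoecious female against female (248 rows, 50 changed), the procedure found 19.2% of those set at 4-fold and 92.2% of those set at 16-fold. All simulated rows had the same dispersion (0.268) and no simulated library stood apart, so these shares need not hold for the real rows. Ratios within a stage were computed with scipy 1.17.1.

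Named rows were up to 12 per direction past 2-fold at both stages, edgeR calls, the 5 smallest p and rows with at least 20 reads in both libraries of 1 bud type and 0 in the other. Up to 6 rows past 2-fold in opposite directions were to be named, and there were 0. All tested families of the lists were named. The members, lists and rules were chosen with earlier results of these data known. Alternatives were RLE factors, total counts, other filters and folds, DESeq2 1.42.0, 1 row per near-identical group, 1 row (the most abundant) per family, fewer libraries, no stage term, and thinning to 473553 reads. TMM factors from family sums, from the 4 compared libraries and, for family sums, from the rows were added after the data were seen.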

Additional observations from a re-analysis of the deposited data

Results flagged for a closer look

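3 named families lay on opposite sides of equality at the 2 stages, with counting intervals clear of 1 under RLE factors, total counts and TMM factors from rows and from family sums. miR394 had a monoecious female to female ratio of 2.52 (B) and 0.847 (C), so the stage B ratio was 2.98 times the stage C ratio. For miR477 the ratios were 4.14 (B) and 0.77 (C), a 5.37-fold difference between the ratios. miR6478 had ratios of 2.86 (B) and 0.852 (C), which differed 3.36-fold. With 1 library per bud type and stage, the difference between the stages was not tested.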

How the results depend on the processing

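Stage B values moved with the scaling. RLE factors and total counts multiplied stage B ratios by 0.846 and 1.04, and the factors from the 4 compared libraries by 0.696. Of 264 recomputed family ratios, 82 moved beyond their counting interval. The 1 row called became 3 with DESeq2, 4 without both bisexual libraries, 7 with the 4 compared libraries alone and 0 with no stage term, and leaving out 1 library at a time gave 0 to 4, with 4 without the bisexual library of either stage. The 1 family or predicted miRNA called became 3 with no filter, 4 with DESeq2 and without both bisexual libraries, and 0 with the 4 compared libraries alone, and leaving out 1 library at a time gave 0 to 7, with 7 without the bisexual library of stage B, 4 without that of stage C, 2 without the female library of stage B and 0 without the monoecious female library of stage C. The 4 rows higher at both stages became 8 at a minimum of 20 reads, 2 at 100 reads, 10 at 1.5-fold, 1 at 3-fold, 1 with factors from family sums and 2 with those from the 4 libraries. The 1 lower row became 2 at 20 reads and 3 at 1.5-fold. novel_33 also lost its call with no stage term (adjusted p = 0.104). Over its alternatives the adjusted p of novel_33 ran from 8.16e-21 to 0.171, and it stayed called in 13 of 17. The adjusted p of novel_30 ran from 0.000324 to 1 and that of novel_41 from 0.000252 to 1. For novel_56 it ran from 0.000152 to 1 and for ppe-miR399a from 0.00456 to 1. The log2 changes of the 8 named rows kept their sign in all alternatives. The causes of these shifts were not tested. The bud types are paired by stage, and the stage term carries that pairing in every fit but the one without it. No paired analysis by replicate was possible because there was 1 library per bud type and stage. A row with 0 reads is limited to 3 reads.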
